A study of Mus musculus with 126 samples.

Results

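Collagen-producing cells of the endolymphatic sac were set against its epithelial cells, within one genotype. All cells were labelled Sox9Y440X/+, that is, they carry 1 allele of the transcription factor gene Sox9 in which the notation gives a tyrosine codon replaced by a stop codon. A collagen cell had at least 2 of Col1a1, Col1a2, Col3a1 and Mmp2 at 10 FPKM or more. An epithelial cell had Epcam at 1 FPKM or more, with Foxi1 and all 4 of those genes below 1 FPKM. These rules chose 61 of the 93 Sox9Y440X/+ cells, 11 collagen cells and 50 epithelial cells, and 32 cells fell on neither side. The cells were thus selected on the FPKM values of these 6 genes. FPKM corrects the fragments assigned to a gene for its length and for the size of the library, so it holds levels and no counts.

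In all, 126 cells were taken from endolymphatic sacs of mouse embryos at E14.5, and 33 of them are labelled wild-type. Each was profiled by Smart-seq2, a plate protocol that copies whole transcripts of a single cell and attaches no molecular identifiers. No animal, litter or plate is named in the labels, so the collagen cells are cells of 1 sample and so are the epithelial cells. Differences between them are therefore given with the spread over cells and without a test. The cell titles of all 61 cells carry the same prefix, which the labels do not define.

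The endolymphatic sac is a blind epithelial pouch of the inner ear that takes part in the regulation of endolymph. It lies in mesenchyme next to the dura, the outer meningeal layer. Mesenchymal cells lay down fibrillar collagens, fibronectin and proteoglycans, and hold intermediate filaments of vimentin. Epithelial cells are joined by claudins and E-cadherin, and hold filaments of keratin 8 and keratin 18. Sox9 itself is expressed in otic epithelium and in skeletal progenitors, where it drives cartilage collagen genes.

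The values that chose the cells are a description and no finding. Col1a2, a chain of collagen I, was present in 11 of 11 collagen cells, with a lowest level of 39.2, a median of 162 and a highest of 637 FPKM. Col3a1, the chain of collagen III, was at 1 FPKM or more in 10 cells (median 163 FPKM, up to 710) and Col1a1, the other chain of collagen I, in 10 cells (median 173, up to 809). Mmp2, a secreted protease that degrades matrix, was in 7 cells (median 176, up to 470). Epcam, an adhesion molecule of epithelia, was at 53.1 to 1882 FPKM in the 50 epithelial cells, with a median of 654. Just inside the rule, the second highest of the 4 genes was 24.6 FPKM in collagen cell 11 and 39.2 in collagen cell 1 (cells are numbered by accession). Just outside, 15 cells had exactly 1 of the 4 genes at 10 FPKM or more, at 10.1 to 173 FPKM with a median of 22.7, and 14 of these 15 had Epcam.

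The mesenchymal label comes from the genes of the rule, so their values do not test it. Epcam, which the collagen rule did not use, was listed at 0 in 9 of the 11 collagen cells. Cells 1 and 11 had Epcam at 329 and 1251 FPKM and, like cell 5, only 2 of the 4 genes at 10 FPKM or more. Cell 1 lacked Col1a1 and Mmp2, and cell 11 lacked Col3a1 and Mmp2. Both also carried keratins and claudins, described below, so results are given with and without them. The label does not rest on transcription factors of mesenchyme: Twist1 was detected (at 1 FPKM or more) in 5 of 11 collagen cells and Prrx1 in 6, against 0 of 50 epithelial cells for each.

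**Figure D1:**
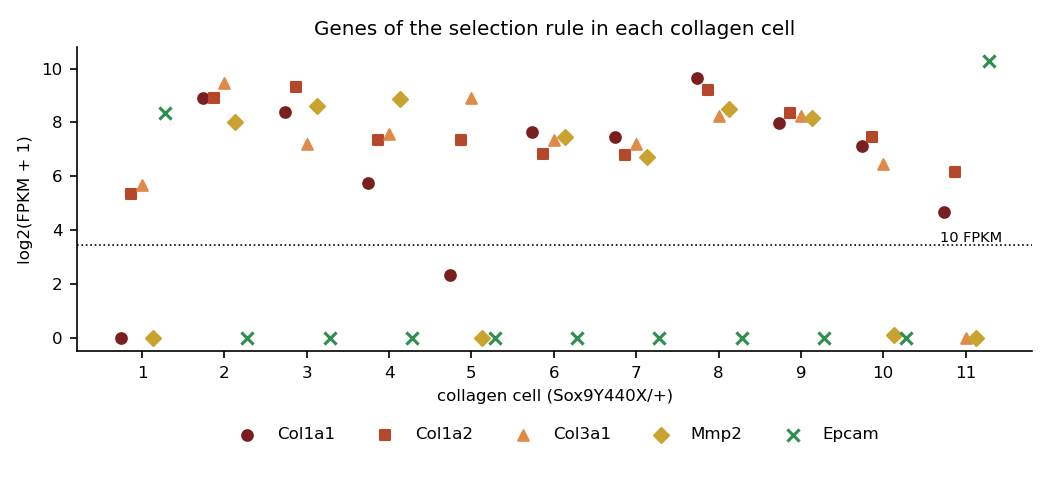
Levels of the 4 collagen-rule genes and of Epcam in each of the 11 collagen cells, as log2(FPKM + 1), with the 10 FPKM threshold dotted. Epcam is at 0 in 9 cells and high in cells 1 and 11, which, like cell 5, have 2 of the 4 genes above the threshold.

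Both sides were listed at similar breadth. Genes at 1 FPKM or more numbered 2423 to 5095 in collagen cells (median 3823) and 1927 to 6167 in epithelial cells (median 3849). The FPKM of a cell summed to 319844 to 553817 on the collagen side and to 383051 to 3767700 on the epithelial side, with medians of 405634 and 453450. Rescaling every cell to the same sum gave 288 higher and 433 lower genes in the comparison below, in place of 223 and 306. FPKM values carry no read number, so the depth is unknown, and genes under 1 FPKM are described as undetected, not as absent. Sox9, the gene of the allele, was detected in 10 of 11 collagen cells (0.083 to 44.1 FPKM, median 17.3) and in 46 of 50 epithelial cells (0.0457 to 49.9, median 10.4). FPKM does not separate the alleles. No member cell had a Y-linked gene at 1 FPKM, and Xist was detected in 11 of 11 collagen and 46 of 50 epithelial cells.

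Collagen cells were 11 of 93 Sox9Y440X/+ cells, 11.8% with an exact (Clopper-Pearson) 95% interval of 6.05 to 20.2%. The same rule found 2 of 33 wild-type cells, 6.06% with an interval of 0.743 to 20.2%. The intervals overlap and cover counting error only, and the genotypes also differ in sex-linked transcripts, since 32 of 33 wild-type cells had a Y-linked gene. The title prefix runs with genotype too: all Sox9Y440X/+ cells share it, and most wild-type cells carry another. One of the 2 wild-type cells lacked Epcam and the other had it at 92.6 FPKM, together with 1262 FPKM of Oc90, the otoconial matrix protein. Counted without Epcam, the shares were 9 of 93 cells (9.68%) and 1 of 33 (3.03%).

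A gene was compared when it was detected in at least 50% of the cells of either side, which held for 3187 genes besides the 6 of the rule. The relative difference is the mean log2(FPKM + 1) of collagen cells minus that of epithelial cells, less the median of 0.13 over all compared genes. At a relative difference of 2 or more, 223 genes (7.0%) were higher in collagen cells, and at -2 or less, 306 genes (9.6%) were lower. Of the 223 higher genes, 192 entered the comparison through the collagen cells alone, and 247 of the 306 lower genes through the epithelial cells alone, so counts over genes that entered are a description. With the 9 Epcam-negative cells as the collagen side, 280 genes were higher and 459 lower.

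The 2 genes with the highest relative difference were Crym and Bgn. Crym (chr7:120186380-120202111, minus strand), a thyroid hormone-binding protein of the cytosol, was at 0 to 809 FPKM in collagen cells with a median of 203, and was detected in 9 of 11 against 1 of 50 epithelial cells. Its mean log2(FPKM + 1) was 6.51 ± 3.41 (SD, 11 cells) in collagen cells and 0.11 ± 0.79 (SD, 50 cells) in epithelial cells, a relative difference of 6.27. Cells 10 and 11 had none, and the 9 others, at 48.7 FPKM or more, lay above the single epithelial cell with Crym, at 46.8 FPKM. Bgn (chrX:73483602-73495933, plus strand), the proteoglycan biglycan, was at 0.396 to 805 FPKM, median 238, against a median of 0 and a highest value of 99.2 in epithelial cells. Its relative difference was 6.24, and cell 1 alone was below 1 FPKM.

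Several of the leading genes encode secreted proteins. Igf2, an embryonic growth factor expressed from the paternal allele, reached 884 FPKM in collagen cells (median 214) and no more than 20.4 FPKM in epithelial cells, a relative difference of 5.73. Igfbp4, which binds insulin-like growth factors, had a median of 294 FPKM and a relative difference of 5.17. Serpine2, an inhibitor of thrombin and plasminogen activators, was detected in all 9 Epcam-negative cells at 26.98 to 301 FPKM, in neither Epcam-positive cell and in 1 epithelial cell. Fn1, fibronectin, was in 10 of 11 collagen cells with a median of 123 FPKM and in 12 of 50 epithelial cells, at most at 82.3 FPKM. Tgfbi, a matrix protein induced by TGF-beta, was in 7 of 11 cells at a median of 207 FPKM and in 1 of 50.

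The other leading higher genes had relative differences from 5.75 down to 4.13. Lgals1, which encodes the glycan-binding galectin 1, was the highest of these at 5.75, and was detected in 10 of 11 collagen and 17 of 50 epithelial cells. Il33, a nuclear cytokine of stromal and barrier cells, and Fxyd5, a regulator of the sodium pump, were each in 7 of 11 collagen and 1 of 50 epithelial cells, at 4.58 and 4.53. Cald1 and Csrp2, linked to the actin cytoskeleton, were at 4.52 and 4.31. Arhgef40 was at 4.32. The imprinted gene Peg3 was at 4.18, and Cd302, a lectin receptor, at 4.13.

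**Figure D2:**
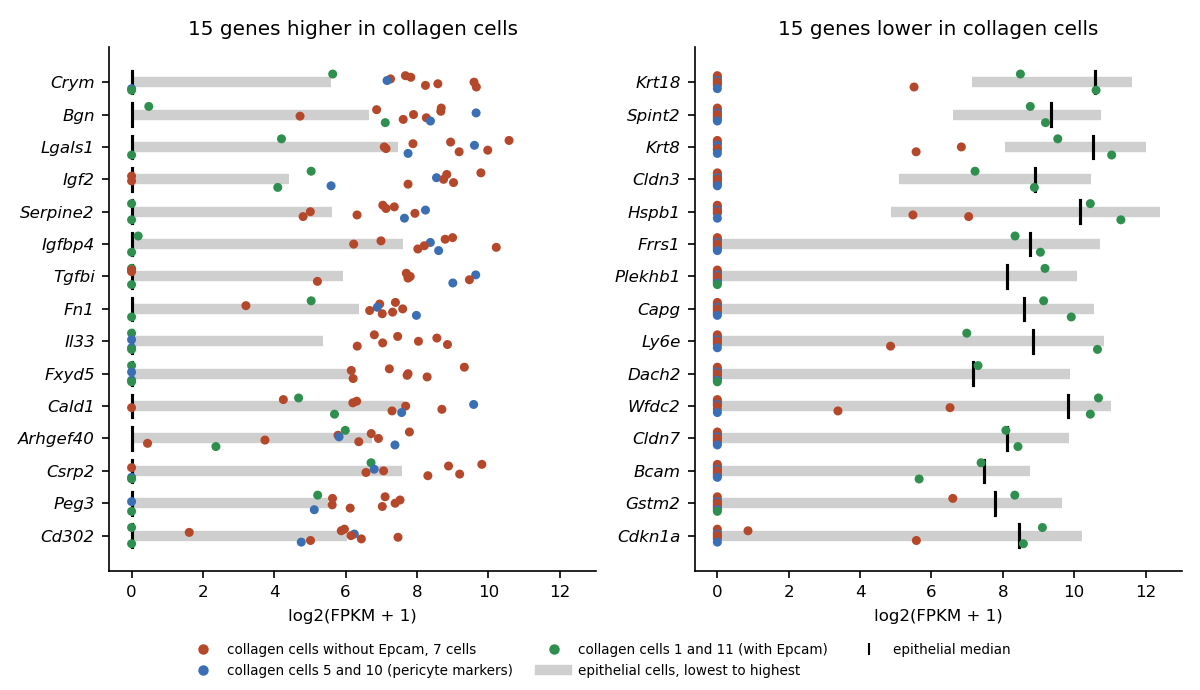
Levels of the 15 leading genes in each direction as log2(FPKM + 1), with 1 point per collagen cell, a grey bar from the lowest to the highest epithelial cell and a black line at the epithelial median. For genes higher in collagen cells the epithelial median is 0, and for genes lower in collagen cells only cells 1 and 11 and a few others rise above 0.

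The lower genes were led by keratins, claudins and protease inhibitors of epithelium. Krt18 (chr15:102028216-102032026, plus strand) was at 140 to 3151 FPKM in all 50 epithelial cells, median 1545, and at 1 FPKM or more in 3 of 11 collagen cells. Its relative difference was -8.35, and -10.1 for the 9 Epcam-negative cells. The 3 collagen cells with Krt18 were cell 1 (359 FPKM), cell 9 (44.7 FPKM) and cell 11 (1567 FPKM). Krt8, its partner keratin, was in all 50 epithelial cells (265 to 4147 FPKM) and in collagen cells 1, 6, 9 and 11, at 744, 114, 46.5 and 2121 FPKM, with a relative difference of -7.53. The keratin levels of cells 6 and 9 lay below those of every epithelial cell, and those of cells 1 and 11 lay within the epithelial range.

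Spint2 (chr7:29256323-29281912, minus strand), a membrane inhibitor of serine proteases, was at 96.3 to 1708 FPKM in 50 of 50 epithelial cells. Among collagen cells it was found only in cells 1 and 11, at 436 and 586 FPKM, and its relative difference was -7.64. Cldn3, a claudin of tight junctions, had the same distribution, with 148 and 472 FPKM in cells 1 and 11, 0 in the other 9, and 32.9 to 1429 FPKM in the epithelial cells. Its relative difference was -7.47, and that of Cldn7 was -6.20. Hspb1, a small heat shock protein, was at -7.03, and was detected in cells 1 and 11 and, at 43.7 and 131 FPKM, in cells 8 and 9. The remaining leading genes were Frrs1 (-6.91), Plekhb1 (-6.85), Capg (-6.58), Ly6e (-6.54), Dach2 (-6.46), Wfdc2 (-6.27), Bcam (-6.05), Gstm2 (-6.03) and Cdkn1a (-5.98). Among these, Capg caps actin filaments, Dach2 is a transcription factor, Bcam binds laminin and Cdkn1a inhibits cyclin-dependent kinases.

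The start regions of such genes are shown because the epithelial repressors ZEB and SNAI bind the E-box CACCTG, and because Zeb1 and Zeb2 were detected in 4 and 5 of 11 collagen cells and in 0 of 50 epithelial cells. The windows run from 250 bases before to 50 bases after a gene start in RefSeq, build GRCm38.p6, and are written 5′ to 3′ on the strand of the gene, with each CACCTG or its reverse complement CAGGTG in capitals. Spint2 (chr7:29281928-29282227, minus strand) and Krt18 (chr15:102027966-102028265, plus strand) are lower in collagen cells, Serpine2 (chr1:79858616-79858915, minus strand) is higher, and Col1a2 (chr6:4505368-4505667, plus strand) is a gene of the rule.
Spint2: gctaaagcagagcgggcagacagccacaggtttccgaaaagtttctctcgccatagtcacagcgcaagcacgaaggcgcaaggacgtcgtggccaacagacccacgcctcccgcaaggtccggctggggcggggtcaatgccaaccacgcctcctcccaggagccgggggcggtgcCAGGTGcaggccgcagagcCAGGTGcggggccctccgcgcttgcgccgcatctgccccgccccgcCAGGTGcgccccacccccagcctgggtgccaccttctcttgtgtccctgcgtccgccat
Krt18: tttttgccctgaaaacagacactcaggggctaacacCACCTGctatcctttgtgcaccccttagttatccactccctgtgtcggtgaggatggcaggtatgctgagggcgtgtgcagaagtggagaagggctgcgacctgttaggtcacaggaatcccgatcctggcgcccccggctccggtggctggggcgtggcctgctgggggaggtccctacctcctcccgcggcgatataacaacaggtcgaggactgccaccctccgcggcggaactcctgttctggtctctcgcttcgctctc
Serpine2: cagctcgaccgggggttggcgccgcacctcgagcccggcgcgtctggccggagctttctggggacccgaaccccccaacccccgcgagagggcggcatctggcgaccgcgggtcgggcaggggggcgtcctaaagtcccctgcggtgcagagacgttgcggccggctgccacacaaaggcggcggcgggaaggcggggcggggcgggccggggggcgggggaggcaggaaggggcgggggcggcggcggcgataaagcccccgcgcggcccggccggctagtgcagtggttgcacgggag
Col1a2: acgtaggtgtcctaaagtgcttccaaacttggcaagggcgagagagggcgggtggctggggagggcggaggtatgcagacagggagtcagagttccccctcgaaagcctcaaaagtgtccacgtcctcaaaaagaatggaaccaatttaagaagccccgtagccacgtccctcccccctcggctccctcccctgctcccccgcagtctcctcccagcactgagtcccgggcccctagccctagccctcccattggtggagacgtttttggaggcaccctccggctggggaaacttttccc

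The Spint2 window held 3 matches and the Krt18 window 1, while the Serpine2 and Col1a2 windows held none. Of the 15 leading lower genes, 14 had a window in the RefSeq table and 9 of these 14 had a match: Krt18, Spint2, Krt8, Cldn3, Capg, Wfdc2, Cldn7, Gstm2 and Cdkn1a. Of the 15 leading higher genes, 11 had a window and 0 had a match. Over all lower genes, 230 of 306 matched the table, and CACCTG was in 28.3% of their 307 windows. Over all higher genes, 164 of 223 matched, and it was in 13.9% of 223 windows, against 16.4% of the 2862 windows of compared genes and 20.2% of all 32851 windows. A gene can have several windows. Counted per gene, as for the leading genes, the shares were 33.9% of lower, 18.3% of higher, 19.3% of compared and 22.6% of all genes with a window.

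For comparison, the 5-letter motif CCAAT was in 32.2% of the windows of lower genes, 35.4% of those of higher genes, 37.002% of those of compared genes and 37.4% of all windows. TATAAA was in 10.7%, 8.97%, 7.41% and 13.6%, so its share in lower genes, too, was above that in compared genes. The median GC content lay between 60.7% and 61.7% for windows of lower, higher and compared genes, and was 52.7% over all windows. All 3 motifs were searched on both strands, and none of them contains another. The shares describe letters in these windows and were not tested. Binding of ZEB or SNAI was not measured, and a link between these factors and the lower genes was not tested.

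The repressors themselves were sparse. Zeb2 was at 634 FPKM in collagen cell 5 and between 1.49 and 24.4 FPKM in cells 3, 6, 7 and 8. Zeb1 was at 104 FPKM in cell 7, 96.2 in cell 5, 57.5 in cell 9 and 7.29 in cell 8. Snai1 was in cells 3 and 9, and Snai2 in cell 6. None of these 4 genes was at 1 FPKM in either Epcam-positive cell, nor in the Epcam-negative cells 2, 4 and 10.

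Gene lists were described by how many members were compared and called, and by the median relative difference of the compared members, beside a median of 0.00 and shares of 7.0% higher and 9.6% lower over all compared genes. Among fibrillar and fibril-associated collagens outside the rule, 5 of 19 were compared, 4 were higher and 0 lower, with a median of 2.42. Col6a3 and Col8a2 were each in 6 of 11 collagen and 0 of 50 epithelial cells, and Col5a2, a chain of collagen V, was in 8 of 11 and 2 of 50. Col11a1 went the other way, in 6 of 11 collagen and 31 of 50 epithelial cells, at -1.23. Whether or not a gene was compared, collagen cells detected 0 to 11 of the 19 (median 5) and epithelial cells 0 to 4 (median 2).

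Matrix glycoproteins and proteoglycans had 10 of 15 compared members higher and 0 lower, with a median of 3.15. Beside Bgn, Tgfbi and Fn1, the higher members included Lum, the small proteoglycan lumican, in 6 of 11 collagen cells (57.2 FPKM median, up to 582) and 0 of 50 epithelial cells. Vcan, the large proteoglycan versican, was in 9 of 11 and 5 of 50. Postn, periostin, was in 6 of 11 and 1 of 50. Sparc, Mfap2 and Efemp2 were not called. Sparc, a calcium-binding matrix protein, had medians of 538 FPKM in collagen and 537 FPKM in epithelial cells and was detected in every cell of both sides.

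Enzymes that fold and cross-link collagen had 7 of 17 compared members higher and 0 lower, with a median of 1.37. The prolyl hydroxylase subunits P4ha1 and P4ha3 were at 2.84 and 2.79, the prolyl 3-hydroxylases P3h1 and P3h3 at 2.76 and 2.27, and the chaperone Fkbp10 at 2.63. Loxl1 and Lox, which cross-link collagen and elastin, were at 2.65 and 2.08, and Lox was detected in 6 of 11 collagen and 0 of 50 epithelial cells. General members of the same pathway were not called: Ppib had medians of 684 and 716 FPKM, and P4hb, the shared prolyl hydroxylase subunit, was detected in 11 of 11 and 49 of 50 cells. Serpinh1, the collagen chaperone HSP47, had a relative difference of 0.19.

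Of the matrix proteases and their inhibitors, 6 of 24 were compared, with Serpine2, Htra1 (4.08) and Timp3 (2.04) higher and Mmp23 (-4.44) and Serpinf1 (-2.92) lower. Mmp14, the membrane protease that activates Mmp2, was in 10 of 11 collagen and 35 of 50 epithelial cells and was not called at 1.33.

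Among secreted signals and binding proteins, 23 of 82 were compared, 10 were higher and 4 lower, with a median of 1.46. Igf1, a growth factor, was in 6 of 11 collagen cells (median 52.6 FPKM, up to 301) and 1 of 50 epithelial cells, the latter at 1.05 FPKM. Cxcl12, a chemokine, and Cthrc1, a secreted collagen-repeat protein, were each in 6 of 11 and 0 of 50. Fstl1, a follistatin-like glycoprotein, was in every collagen cell at 59.2 to 549 FPKM and in 44 of 50 epithelial cells at up to 133. Frzb, a secreted WNT inhibitor, was in 7 of 11 and 2 of 50. On the epithelial side, Efna1 was in 0 of 11 collagen and 38 of 50 epithelial cells at -5.16, Wnt6 was at -3.69, Slit2 at -3.29 and Wnt10a at -2.13.

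Receptors were evenly divided, with 3 higher and 3 lower of 16 compared. The higher ones were the collagen receptor Ddr2 (8 of 11 and 0 of 50 cells, 3.26), Nrp1 (2.93) and Axl (2.05). The lower ones were Ddr1, the epithelial collagen receptor related to Ddr2 (4 of 11 and 39 of 50 cells, -2.59), Gfra1 (-2.64) and Nrp2 (-2.28). Within the pair of discoidin receptors and within the pair of neuropilins, 1 member was thus higher and the other lower. Pdgfra and Pdgfrb, platelet-derived growth factor receptors of mesenchyme, were each in 4 of 11 collagen and 0 of 50 epithelial cells, too few to be compared.

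Cytoskeletal and surface genes linked to mesenchyme had 10 higher and 7 lower of 31 compared, with a median of 0.66. Vim, vimentin, was at 0 to 689 FPKM in collagen cells (median 251) and in 32 of 50 epithelial cells (median 53.2), a relative difference of 2.86. Cell 11 was the collagen cell without it. Cdh11, a cadherin of mesenchyme, was in 10 of 11 and 15 of 50 cells, at 3.80. Cdh2, N-cadherin, was lower at -3.19, being detected in 46 of 50 epithelial and 5 of 11 collagen cells. The annexin Anxa2 was lower at -3.18, though detected in 9 of 11 collagen cells, and S100a10, its binding partner, was at -4.38. Vcam1, an adhesion molecule, was in 7 of 11 collagen cells and 0 of 50 epithelial cells.

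Transcription factors linked to mesenchyme showed no common direction. Of the 52 measured, 12 were compared, 4 were higher and 2 lower, and the median was -0.48. Foxp2 (2.95), Prrx1 (2.74), Nfix (2.49) and Tcf4 (2.11) were higher, and Msx1 (-2.83) and Nfia (-2.61) lower. With the 9 Epcam-negative cells as the collagen side the median was -0.23 over the same genes, and 0.96 over the members that passed the detection share in these 9 cells, so its sign depends on which genes entered. Twist1, Twist2, Prrx2, Zeb1, Zeb2, Ebf1 and Foxc1 were each in 3 to 5 of 11 collagen and in 0 of 50 epithelial cells, and did not reach the detection share for comparison.

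Genes reported for meningeal and dural mesenchyme had 9 of 29 members compared, 6 higher and 1 lower, with a median of 3.04. Among the 20 not compared, Aldh1a2, Slc22a6, Slc13a4, Slc6a13, Dkk2 and Slc6a20a were in 0 of 11 collagen cells, and Tbx18, Foxd1 and Crabp2 in 1. Beside Bgn, Igf2, Fxyd5 and Cxcl12 the higher members were Mgp, an inhibitor of calcification (6 of 11 and 1 of 50 cells, 3.65), and Zic4, a zinc finger factor (6 of 11 and 0 of 50, 2.31). Ptgds, prostaglandin D synthase, was the lower one at -3.81 and was detected in cells 1 and 11 and in 33 of 50 epithelial cells. Of genes linked to periotic mesenchyme, only Prrx1 and Trps1 of 15 were compared. Matrix genes stand in several of these lists, so the lists are not independent of each other.

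Of 20 cartilage genes, 5 were compared, 3 were higher and 0 lower, with a median of 3.19. Col2a1, the main cartilage collagen and a direct SOX9 target in cartilage, was in 8 of 11 collagen cells (median 52.5 FPKM, up to 408) and 7 of 50 epithelial cells (up to 51.6), a relative difference of 3.91. Col9a1 was in 7 of 11 and 4 of 50 at 4.08, and Col9a3 in 8 of 11 and 19 of 50 at 3.19. Col11a1 was at -1.23. Among members not compared, Acan, Matn1 and Matn3 were in 0 of 11 collagen cells and Comp in 1. Over the whole list, collagen cells detected 1 to 10 of 20 genes (median 6) and epithelial cells 1 to 8 (median 4), so the ranges overlapped.

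Imprinted growth genes had 4 of 8 compared members higher and 0 lower: Igf2, Peg3, Mest (3.96, in 10 of 11 and 14 of 50 cells) and Nnat (2.07). Meg3, Cdkn1c, Grb10 and Ndn were not called.

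Epithelial adhesion genes went the other way. Of 50 adhesion, polarity and keratin genes in the table, 27 were compared, 19 were lower and 1 higher, with a median of -2.99 and of -4.04 with the 9 Epcam-negative cells. Cdh1, E-cadherin, was in 36 of 50 epithelial cells and in collagen cells 1 and 11 alone, at -2.82. Cldn4 and Cldn6 were at -5.58 and -5.16, and Ap1m2, an adaptor subunit of epithelial sorting, was in 0 of 11 collagen and 37 of 50 epithelial cells. Prom1, prominin 1, was the exception, detected in 8 of 11 collagen cells (23.5 FPKM median) and 3 of 50 epithelial cells, at 3.18. Cd24a was in all 61 cells at -0.82.

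Epithelial regulators had 7 of 11 compared members lower and 0 higher, with a median of -2.79. The serine protease Prss8 was in 0 of 11 collagen and 30 of 50 epithelial cells, and its relatives in the same membrane cascade, St14, Spint1 and Spint2, were in collagen cells 1 and 11 only, against 37, 46 and 50 of 50. Of 34 otic and sac transcription factors, 5 were compared: Dlx5 (-4.95), Lmx1a (-3.72) and Msx1 (-2.83) were lower, and Sox9 (0.64) and Hes1 (1.93) were not called. Their median was -2.83 and depended on the cells. It was 0.82 when 3 of the 4 rule genes were required, and -1.31 to -0.998 without cell 1, 2, 5, 8, 10 or 11.

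Genes that the sac epithelium secretes or uses in transport were divided, 7 lower and 4 higher of 13. Spp1, osteopontin (-5.10), and Aldh1a3, a retinaldehyde dehydrogenase (-4.82, in 0 of 11 and 28 of 50 cells), were lower. So was Fxyd3 (-3.55), whereas its relatives Fxyd5 (4.53) and Fxyd6 (2.92) were higher. Slc12a2, a sodium-potassium-chloride cotransporter, was also higher at 2.43. Oc90 was in 0 of 11 collagen and 19 of 50 epithelial cells, and Agt, angiotensinogen, in 0 and 21, below the share for comparison.

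**Figure D3:**
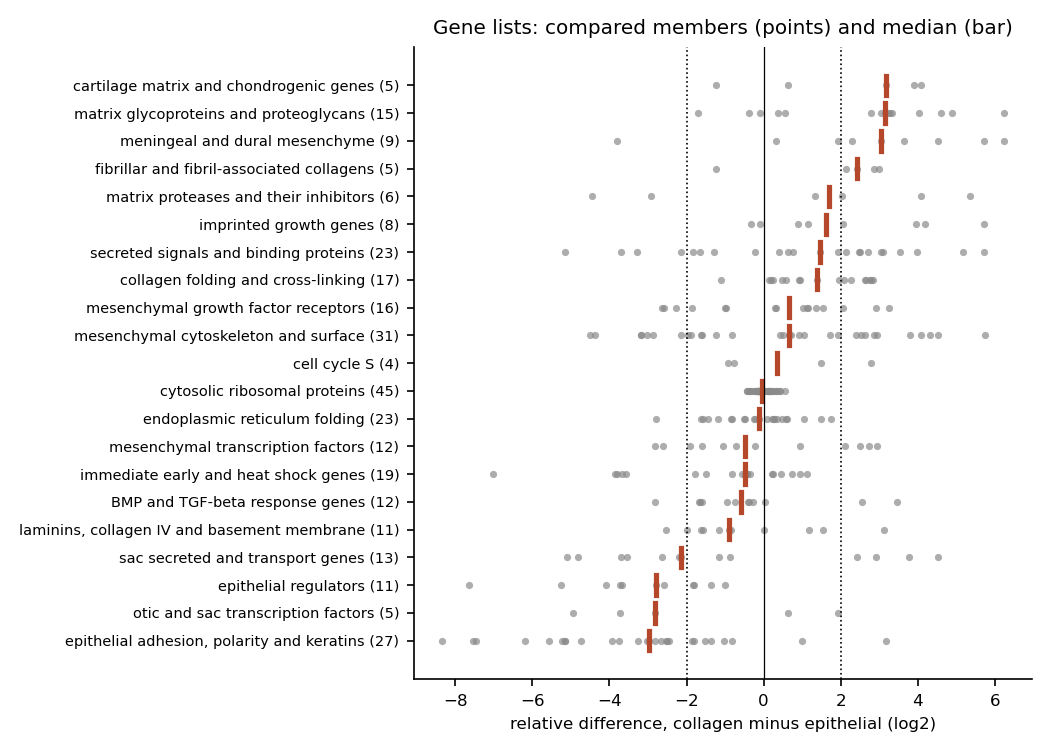
Relative difference (log2, collagen minus epithelial) of every compared member of each list with at least 4 compared genes, the number in brackets, and the list median as a bar. Dotted lines mark 2 and -2. Matrix, cartilage and meningeal lists lie to the right, epithelial lists to the left, and ribosomal genes close to 0.

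Housekeeping lists gave a scale for these values. All 45 cytosolic ribosomal protein genes were compared, 0 were called and their median was -0.03. Of 23 genes of protein folding and translocation in the endoplasmic reticulum, 0 were higher and 1 lower, at a median of -0.12. The lower one was Ssr4 (-2.80), a subunit of the translocon-associated complex. Basement membrane genes had 1 higher, Col4a1 (3.12), and 1 lower, Lama5 (-2.52), of 11. Immediate early and heat shock genes had 5 lower and 0 higher of 19, with a median of -0.48. These were Hspb1, Btg2 (-3.86), Atf3 (-3.80), Nr4a1 (-3.67) and Dusp1 (-3.57), while Fos, Jun and Egr1 were not called.

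Detection alone gave a stricter view. At 1 FPKM, 83 compared genes (2.6%) were in at least 50% of collagen cells and at most 10% of epithelial cells, 22 of them in 0 of 50 epithelial cells. Among those 22, Ddr2 was in 8 of 11 collagen cells and Vcam1 in 7. Tgfb1i1, an adaptor of focal adhesions, was also in 8, but overlapping gene models make its value uncertain. In the other direction, 21 genes (0.659%) were in at least 50% of epithelial cells and in no collagen cell. They included Ap1m2, Efna1, Prss8, Aldh1a3, the polarity gene Llgl2 and the WNT inhibitor Notum (28 of 50). Both counts turned on single cells: without cell 1, 4, 7, 10 or 11 the first was 138, 129, 126, 128 or 147, partly because 50% of 10 cells needs 1 cell fewer than of 11, and without cell 1 the second was 51. Over the 9 Epcam-negative cells the counts were 135 and 112.

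Counting called genes cell by cell set the 2 Epcam-positive collagen cells apart. The 9 Epcam-negative cells detected 119 to 199 of the 223 higher genes (median 179) and 24 to 114 of the 306 lower genes (median 69). Epithelial cells detected 23 to 111 (median 57.5) and 123 to 278 (median 236). Since these cells defined the calls, the separation of the sides is a description. Cell 1 detected 126 higher and 243 lower genes, above every epithelial cell in the first and within their range in the second. Cell 11 detected 78 and 160, within the epithelial range in both. Of the lower genes, 145 were detected in both of these cells, and 98 in none of the 9 others. Cell 1 listed 5095 genes at 1 FPKM, the most of the 11, and cell 11 listed 2716. No doublet caller was run, as it needs counts, and whether these cells hold RNA of more than 1 cell was not tested.

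**Figure D4:**
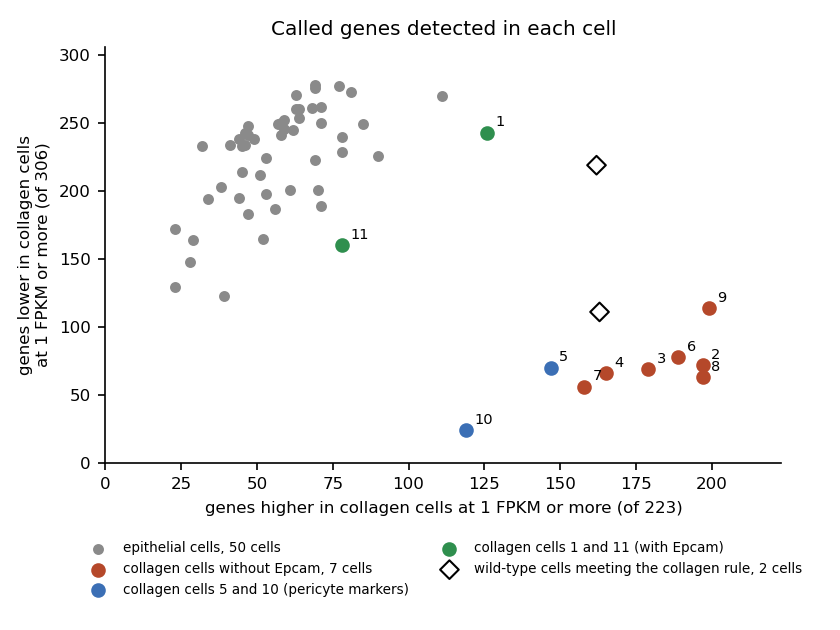
Number of the 223 higher genes (x axis) and of the 306 lower genes (y axis) at 1 FPKM or more in each cell. The 9 Epcam-negative collagen cells lie at the lower right, the 50 epithelial cells at the upper left, and collagen cells 1 and 11 at 126 and 78 higher genes. The 2 wild-type cells that met the collagen rule are open diamonds at 162 and 163.

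Among the 9 Epcam-negative cells, 2 stood apart by pericyte marker genes. Cells 5 and 10 detected 8 and 5 of 13 pericyte and smooth muscle markers, the other 7 cells 0 to 3, the Epcam-positive cells 0, and epithelial cells 0 to 2. The summed level of the 13 was 0 to 649 FPKM in collagen cells and 0 to 199 FPKM in epithelial cells. Kcnj8, a potassium channel subunit of pericytes, was at 105 FPKM in cell 5 and 189 in cell 10, and Abcc9, its sulfonylurea receptor partner, at 124 and 54.4, with both below 1 FPKM in the other 9 collagen cells. Pdgfrb was at 161 and 42.1 FPKM in these cells, and at 27.5 in cell 3 and 6.79 in cell 6. Rgs5 was at 173 and 3.81, and at 4.75 in cell 6. Other markers of the list were sparse: the contractile gene Myh11, Des and Higd1b were in none of the 11, and Acta2, Cspg4, Cnn1 and Ndufa4l2 in 1 each. The endothelial markers Pecam1 and Cdh5 were at 0 in all 61 cells.

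Across all genes, 9 were in cells 5 and 10 and in no other of the 61 cells. Beside Kcnj8 and Abcc9 they included Foxf2, a forkhead factor (65.9 and 110 FPKM), Vtn, vitronectin, Rgs4, Grap and the predicted genes Gm2399 and Gm16070. Kcnj8 and Abcc9 belong to the marker list that set cells 5 and 10 apart, so their place among the 9 adds no support. The 9 were singled out after their values were seen, and no other pair of cells was counted for comparison. Conversely, 57 compared genes were in all of the other 7 cells and in neither cell 5 nor cell 10. How many compared genes were in all 7 was not counted, so the 57 have no share. Of the 57, 18 were called higher against the epithelium, beside 7.0% of all compared genes. Detection in 7 collagen cells favours that call, so the 18 are a description. Some of the 57 were widely detected, such as Lrpap1 in 46 and Edf1 in 44 of 50 epithelial cells. Among the 18 were Col2a1 (26.9 to 408 FPKM in the 7 cells), Col9a1 (11.97 to 405), Col9a3 (71.6 to 588), Il33 (79.1 to 461), Fxyd5 (70.4 to 641), Htra1 (77.02 to 204), P4ha1 (22.4 to 197), Pmp22, a myelin and junction protein (38.2 to 143), and Angpt1, a ligand of the TIE2 receptor (2.18 to 132). Vcam1 (23.6 to 462) was the one in 0 of 50 epithelial cells. Cell 10 listed the fewest genes of the 11 collagen cells, 2423 at 1 FPKM against 3684 in cell 5, and the part of depth in what cell 10 lacks was not tested.

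Among the higher genes, what all 9 Epcam-negative cells shared was narrower. In these cells 28 of the 223 higher genes were all detected, among them Bgn, Fn1, Igfbp4, Serpine2, Lgals1, Cd302, Vim, Mest, Fstl1, Fbn2 (fibrillin 2) and Id3, a target of BMP signalling. Id3 was at 228 to 916 FPKM in the 7 cells, 659 and 774 in the other two and at 0 in both Epcam-positive cells. As a list, BMP and TGF-beta response genes were not raised. Of 19, 12 were compared, 2 were higher, 1 was lower and only 3 had a positive relative difference, with a median of -0.58. Without cells 5 and 10, 233 genes were higher and 340 lower.

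**Figure D5:**
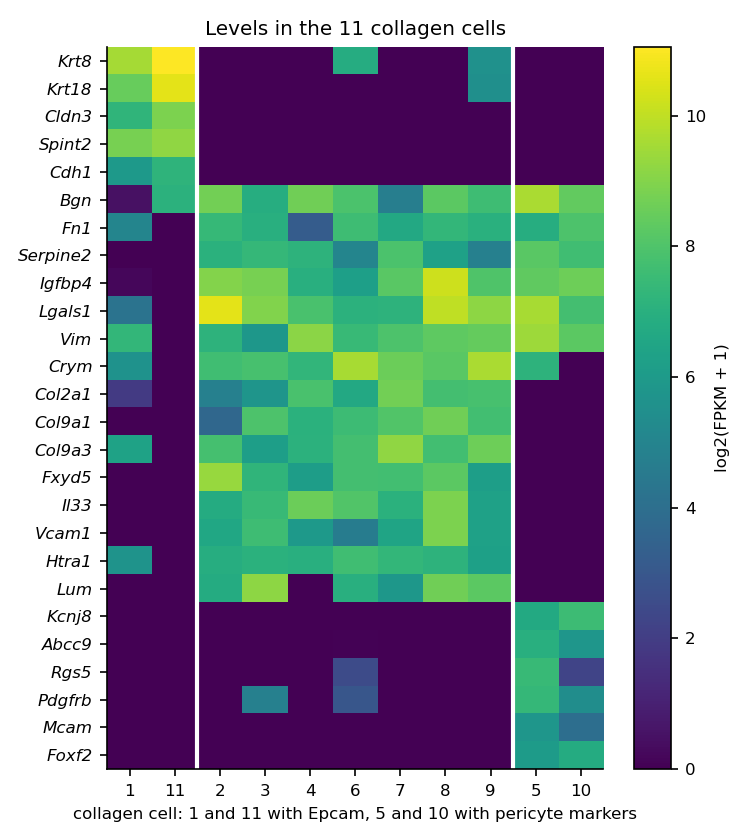
Levels of 26 genes, chosen after their values were seen, in the 11 collagen cells as log2(FPKM + 1). Epithelial genes are high in cells 1 and 11. Bgn, Fn1, Serpine2 and Igfbp4 are detected in all 9 others, Bgn also in cell 11 and Fn1 also in cell 1. Lum is detected in 6 of the 11 cells. Col2a1, Col9a1, Fxyd5, Il33 and Vcam1 are high in 7 of the 9, and Kcnj8, Abcc9 and Foxf2 in cells 5 and 10.

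Cycling genes varied from cell to cell. Cell 4 detected 14 of 20 G2 and M phase genes and 18 of 22 S phase genes, with Top2a, a topoisomerase, at 150 FPKM and Birc5, survivin, at 257 FPKM. Across collagen cells the median was 1 of 20 and 6 of 22, and across epithelial cells 0 and 3, with highest values of 15 and 20. The helicase subunit Mcm2 was the 1 S phase gene called higher (2.78, in 8 of 11 and 8 of 50 cells).

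Markers of other cell types were few on both sides. Of 14 immune markers a collagen cell detected 0 or 1 and an epithelial cell 0 or 1, with summed levels of up to 6.44 and 48.9 FPKM. Of 11 erythroid markers the highest counts were 1 and 2, of 8 melanocyte markers 1 and 2, of 12 glial and neural crest markers 3 and 3, of 14 neuronal markers 2 and 1, of 11 skeletal muscle markers 0 and 1, and of 15 endothelial markers 3 and 3, with summed endothelial levels of up to 520 and 148 FPKM. No member of these 7 lists reached the share for comparison.

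The leading genes could be read in the 2 wild-type cells that met the collagen rule, which entered none of the differences or gene counts above. The wild-type cell without Epcam had Crym at 905 FPKM, Bgn at 138, Lgals1 at 487, Igfbp4 at 266, Serpine2 at 116 and Il33 at 150, with Krt8, Krt18, Cldn3 and Spint2 at 0 and Fn1 at 0. The one with Epcam had Igf2 at 627 FPKM and Fn1 at 143 together with Krt8 at 394, Krt18 at 398 and Cldn3 at 175, and lacked Crym and Tgfbi. They detected 163 and 162 of the 223 higher genes and 111 and 219 of the 306 lower genes. With 1 cell of each kind, no comparison of genotypes was made.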

How the data were processed

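Single-cell FPKM values of 93 Sox9Y440X/+ cells were used. The authors deposited 1 table of FPKM per gene and cell, made with Cufflinks, HTSeq, HISAT2, SAMtools 0.1.18 and mm10 among the tools and builds listed, per the submitters' processing notes, which give no role or order. The sources used here do not give strand, annotation release or read filters, so overlapping genes and near-identical copies cannot be told apart. The 49 identifiers with several of the 48555 rows were summed. Mitochondrial rows are all 0, and read depth is unknown, so precision rests on the number of cells.

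From these values, log2(FPKM + 1) was averaged over cells and differences were centred on the median of the compared genes (Python 3.11.15, numpy 2.4.6, pandas 2.3.3, scipy 1.17.1). Adding 1 shrinks differences between low values. The named genes were the 15 with the highest and the 15 with the lowest relative difference whose direction, and at least 50% of whose size, remained on leaving out any 1 collagen cell and on rescaling cells to 1000000, leaving out predicted genes, pseudogenes and haemoglobin, mitochondrial and sex-linked genes. List members and exceptions stated in the text were added. The cells and lists were chosen with earlier results of these data known. Calculations were tested on simulated data. Alternatives changed the pseudocount, filter, scaling, summary, centring, detection level, rules and cells kept. Some genes counted in the lists are not reported here by name.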

Additional observations from a re-analysis of the deposited data

How the results depend on the processing

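The direction of the 30 leading genes on leaving out a collagen cell or rescaling was fixed by how they were chosen. Under the other alternatives none changed direction, and those that fell within 2 were Capg (-1.77), Ly6e (-1.90) and Wfdc2 (-1.67) with the log2 of the mean FPKM, and Cd302 (1.98) with a pseudocount of 10. The median of otic and sac transcription factors turned from -2.83 to 0.82 when 3 of the 4 genes were required. The cause was not tested.

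The 223 higher and 306 lower genes became 484 and 558 with a pseudocount of 0.1, 34 and 76 with 10, 141 and 194 with the log2 of the mean, and 644 and 606 with the median over cells. They were 312 and 307 with genes at 1 FPKM in at least 3 cells, and 308 and 309 with no filter, so the excess of lower genes was not seen there. With 3 of 4 genes required (8 cells), 523 genes were lower, 223 were mainly in collagen cells and 123 mainly in epithelial cells. With Epcam below 1 in collagen cells the latter were 135 and 112. Restricting cells to 3000 to 5000 listed genes left 7 collagen cells and 75 genes mainly in epithelial cells. Leaving out each collagen cell gave 188 to 227 higher and 328 to 415 lower genes, 101 to 147 mainly in collagen cells and 22 to 51 mainly in epithelial cells. Rules at 5 or 20 FPKM, Foxi1 below 1, Epcam at 10 and the absence of Y-linked genes chose the same 61 cells. Leaving out cells 5 and 10 was added after the data were seen. No paired analysis was possible because no animal or replicate number ties collagen to epithelial cells.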
